A study of Mus musculus with 15 samples.

Results

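Scavenger receptors and receptors for dead cells are the proteins with which microglia and macrophages take up bacteria, modified lipoproteins and dying cells. Of 9 listed genes of this kind, the 6 with a row in the deposited table (Marco, Cd36, Scarb1, Stab1, Mertk and Gas6), among 11201 genes in all, are described here. The members were taken by gene symbol from a list that was drawn up with earlier results of these data known. Msr1, Axl and Pros1, the other listed genes, are not analysed here. The cells were ESdM, microglia derived in culture from C57BL/6-ATCC mouse embryonic stem cells and grown in N2 medium, and RNA was sequenced from 15 libraries. LPS+IFNg libraries (n = 3) came from cells given lipopolysaccharide (LPS, a bacterial cell wall component) at 500 ng/ml with interferon gamma at 20 ng/ml, IL4 libraries (n = 3) from cells given interleukin 4 at 100 U/ml, and TGFb libraries (n = 3) from cells given transforming growth factor beta at 50 ng/ml, each for 24 h. The untreated libraries (n = 6) came from cells given no stimulus. No allele or transgene was named. Separate cultures behind the libraries of 1 group are not stated in the labels. The p-values therefore speak of library-to-library spread alone, and that spread may be technical.

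As background, scavenger receptors are a mixed group of surface proteins that bind negatively charged ligands, among them bacterial products, oxidized lipoproteins and the lipid phosphatidylserine, which dying cells expose. MERTK is a receptor tyrosine kinase that does not bind dying cells directly. The secreted protein GAS6 bridges it to phosphatidylserine on them, and the dying cell is then engulfed. In the brain, microglia clear neurons that die in development and disease in this way.

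The values are normalized read counts, that is, reads per gene divided by 1 scale factor per library. Whole reads summed to 2682564 to 18676181 per library (median 7589049), and 1 read was worth 0.391 to 2.80 normalized counts. Of 10 microglia and macrophage markers, 9 had a row, and their summed level was 22372 to 25558 in LPS+IFNg libraries, 23388 to 24067 in IL4 libraries, 26636 to 27685 in TGFb libraries and 18394 to 20029 in untreated libraries. Of these, the microglia genes Tmem119 and Cx3cr1 were low without TGFb: they averaged 82.3 and 39.5 in TGFb libraries, against 7.62 and 2.60 in untreated libraries. None of the markers of embryonic stem cells (0 of 6), neurons (0 of 6) or fibroblasts (0 of 5) had a row. Of the 5 astrocyte markers Aldh1l1 had one, and of the 5 endothelial markers Vwf. Aldh1l1 was at 51.9 to 75.7 normalized counts in LPS+IFNg libraries, 45.8 to 61.6 in IL4 libraries and 38.4 to 43.0 in TGFb libraries, against 19.6 to 38.3 in untreated libraries, and its part in the results was not tested. LPS+IFNg replicate 3 stood apart from the other libraries of its group. Its root mean square log2 difference from replicates 1 and 2 was 0.451 and 0.474, and that between replicates 1 and 2 was 0.242. Some results that rest on it are given with and without it below. A result given only over all libraries may still depend on it, the C1qb ratio among them.

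The comparisons were made with limma on log2(value + 1), and a gene is called where its Benjamini-Hochberg adjusted p over all 11138 tested genes was below 0.05. All 6 genes were tested. Marco reached the minimum value for testing through the LPS+IFNg libraries, together with 2 untreated libraries. Fold changes on this scale understate the change of genes with low values. The 3 stimuli were set against the same untreated libraries, so their comparisons are not independent. In bulk RNA, fewer cells that express a gene and less RNA per cell cannot be told apart.

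Against untreated cells, 5 of the 6 genes changed with LPS+IFNg (2 higher, 3 lower), 3 with IL4 (2 higher, 1 lower) and 4 with TGFb (2 higher, 2 lower). The 6 genes include Marco, which reached the minimum value in only 2 libraries outside LPS+IFNg. Its call as higher with LPS+IFNg is therefore not independent of that filter. Of all tested genes, 58.9% were called with LPS+IFNg, 17.2% with IL4 and 47.5% with TGFb. By direction, 29.5% of all tested genes were higher and 29.4% lower with LPS+IFNg, 9.89% higher and 7.33% lower with IL4, and 24.1% higher and 23.4% lower with TGFb. The genes did not move as a block. Their median log2 fold change was -0.12 with LPS+IFNg, 0.02 with IL4 and 0.00 with TGFb, beside a median over all tested genes of 0.00, 0.00 and 0.01 for the same stimuli. Marco and Stab1 rose with LPS+IFNg while Cd36, Scarb1 and Gas6 fell, Cd36 and Mertk rose with IL4, and Stab1 and Mertk rose with TGFb while Marco and Cd36 fell. Without LPS+IFNg replicate 3, Mertk was called lower as well, so that 2 genes were higher and 4 lower with LPS+IFNg, where 55% of all tested genes were then called. In the same fit Gas6 was called higher and Stab1 lower with IL4, so that 3 genes were higher and 2 lower with IL4, where 24.9% of all tested genes were called.

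**Figure D1:**
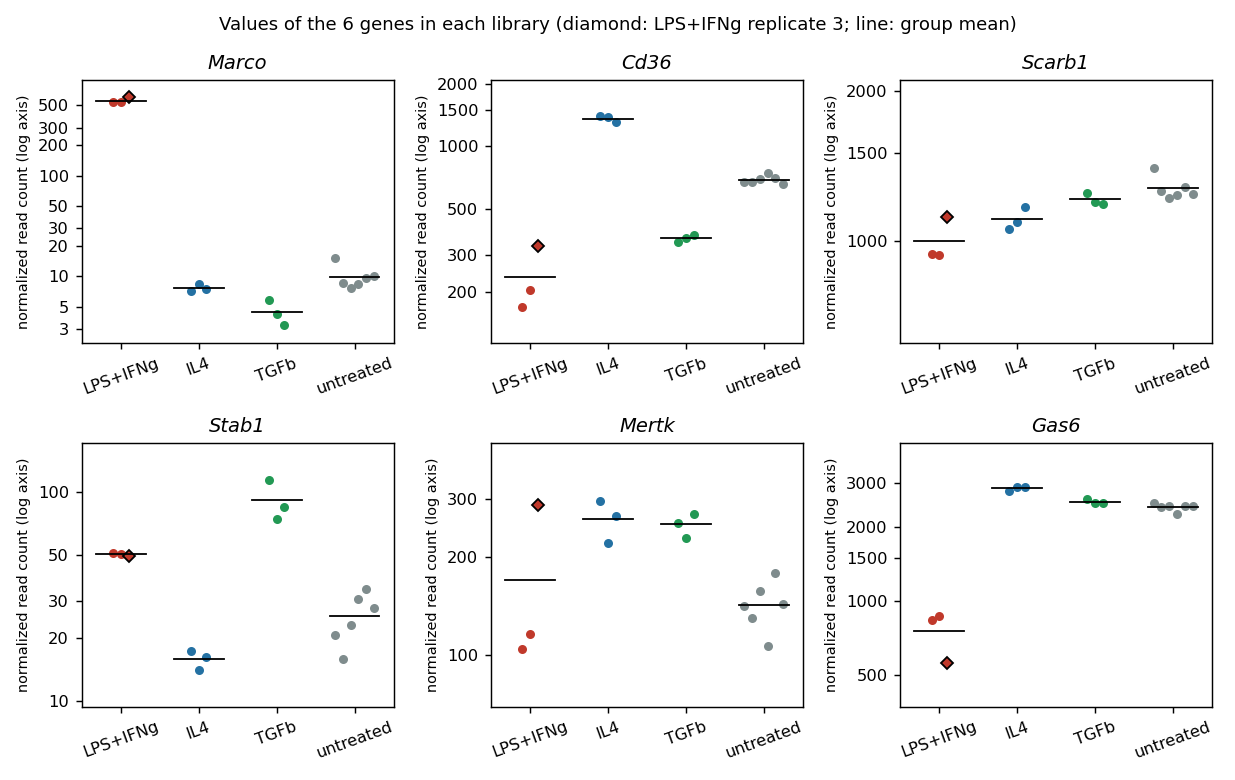
Normalized read counts (y axis, log scale) of the 6 genes in each of the 15 libraries, by group (x axis). Each point is 1 library, each line a group mean, and the diamond is LPS+IFNg replicate 3. Marco is at 534 to 597 in LPS+IFNg libraries and at 15.1 or below in all others, and in Mertk the diamond lies at 288, apart from the other LPS+IFNg points at 105 and 116.

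The 2 genes that rose with LPS+IFNg were Marco and Stab1, and the 250 bases before their annotated transcript starts are shown to let the sequence be read beside the values. Both are from RefSeq (GRCm38.p6) and are written in the direction of transcription. The Marco window is chr1:120505025-120505274 on the minus strand, and the Stab1 window is chr14:31168642-31168891 on the minus strand. Capitals mark matches to 1 of 5 motifs.
Marco: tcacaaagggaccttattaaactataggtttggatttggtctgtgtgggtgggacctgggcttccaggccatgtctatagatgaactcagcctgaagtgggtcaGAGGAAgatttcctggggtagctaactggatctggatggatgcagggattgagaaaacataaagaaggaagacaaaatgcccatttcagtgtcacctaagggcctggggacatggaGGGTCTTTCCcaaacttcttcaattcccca
Stab1: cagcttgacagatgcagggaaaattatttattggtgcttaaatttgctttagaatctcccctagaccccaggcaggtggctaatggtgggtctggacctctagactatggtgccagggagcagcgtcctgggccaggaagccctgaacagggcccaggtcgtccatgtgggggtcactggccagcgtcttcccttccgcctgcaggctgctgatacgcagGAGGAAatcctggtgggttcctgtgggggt
The motifs were searched on both strands in the windows of the 5 genes that had one (Marco, Mertk, Cd36, Gas6 and Stab1) and in all 32851 RefSeq windows. The bases just after the window were found near the 5′ end of an annotated transcript for Marco and Stab1, but not for Mertk, Cd36 and Gas6, so that the windows of these 3 were not matched to an annotated start. Of all windows, 19348 passed the same check. The Marco window held 1 match to an NF-kB motif (GGGNNTTTCC), 30 to 21 bases before the start, and 1.412% of all windows held that motif (1.406% of those that passed the check). It also held the PU.1 motif (GAGGAA) 146 to 141 bases before the start. The Stab1 window held the PU.1 motif 30 to 25 bases before the start. That motif was in 23.253% of all windows (22.638% of those that passed) and in none of the Mertk, Cd36 and Gas6 windows. The gamma-activated site (TTCNNNGAA, in 7.02% of all windows), the STAT6 motif (TTCNNNNGAA, in 5.854%) and the SMAD palindrome (GTCTAGAC, in 0.167%) had no match in the Marco and Stab1 windows, nor in the other 3. Of the windows that passed the check, 6.585%, 5.442% and 0.181% held these motifs. The gamma-activated and STAT6 motifs differ in spacing only, and no match shown here overlaps another. A match to these letters does not show that a factor binds there.

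Marco encodes a class A scavenger receptor of macrophages that binds bacteria and unopsonized particles (chr1:120474538-120505024, GRCm38, minus strand, protein coding). Its normalized read count was 534, 539.9 and 597 in LPS+IFNg libraries, 7.17, 8.47 and 7.54 in IL4 libraries, and 5.81, 4.27 and 3.25 in TGFb libraries. In the 6 untreated libraries the lowest was 7.73, the median 9.17 and the highest 15.1. All LPS+IFNg libraries, replicate 3 included, were far above the other 12, and all TGFb libraries were below every untreated library. Marco, which was tested through the LPS+IFNg libraries, rose 52.0-fold with LPS+IFNg (log2 fold change 5.70 ± 0.22, SE, limma adjusted p = 7.28e-14). It fell by 1.00 on the log2 scale with TGFb (limma adjusted p = 0.000941), and with IL4 its log2 fold change was -0.30 (95% interval -0.76 to 0.16), not called. These low levels rest on few reads, 32 over the IL4 libraries, 17 over the TGFb libraries and 59 over the untreated libraries, beside 1846 over the LPS+IFNg libraries. Next to each other in level, IL4 libraries were above TGFb libraries by 0.71 on the log2 scale (limma adjusted p = 0.0329). That call was lost under 9 of 23 alternative settings, where the adjusted p reached 0.142, the fit without LPS+IFNg replicate 3 (0.0537) among them.

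Stab1 encodes stabilin-1, a large endocytic receptor that takes up modified lipoproteins and binds phosphatidylserine (chr14:31139013-31168641, minus strand, protein coding). It was at 114, 74.7 and 85.3 normalized counts in TGFb libraries and at 51.1, 50.7 and 49.7 in LPS+IFNg libraries, against 17.3, 14.1 and 16.2 in IL4 libraries. Its untreated values ran from 15.8 to 34.5, with a median of 25.5. The TGFb libraries were highest, the LPS+IFNg libraries lay between them and the untreated ones without overlap, and the IL4 libraries overlapped the lowest untreated values. Stab1 rose 3.54-fold with TGFb (log2 fold change 1.82 ± 0.21, SE, limma adjusted p = 1.15e-06) and by 1.00 ± 0.21 (SE) on the log2 scale with LPS+IFNg (limma adjusted p = 0.000504). With IL4 the log2 fold change was -0.61 (95% interval -1.06 to -0.16, limma adjusted p = 0.0556), not called, and it was called in 5 of 23 alternative settings, the fit without LPS+IFNg replicate 3 (0.0422) among them. The LPS+IFNg libraries were below the TGFb libraries by 0.82 on the log2 scale (limma adjusted p = 0.00716), and without TGFb replicate 1 that difference had an adjusted p of 0.0511. Stab1 was covered by 363 reads over the TGFb libraries, 169 over the LPS+IFNg libraries, 69 over the IL4 libraries and 157 over the untreated libraries.

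Exons of Stab1 share 112 bases with Nt5dc2 on the opposite strand, and whether reads were counted by strand is not given in the sources used here. Nt5dc2 averaged 531 normalized counts in TGFb libraries, 557 in LPS+IFNg libraries and 699.8 in IL4 libraries, against 823 in untreated libraries. It was called lower with each of them (log2 fold change -0.63, -0.57 and -0.24, limma adjusted p = 2.5e-06, 5.13e-06 and 0.0433). It thus moved the other way from Stab1 with TGFb and LPS+IFNg, and the same way with IL4. The part of reads from the shared bases in the Stab1 values was not tested. The endothelial marker Vwf was also higher in TGFb libraries, at 694 to 799 normalized counts against 178 to 235 in untreated libraries. In LPS+IFNg libraries, where Stab1 rose too, Vwf was at 97.1 to 121. The other 4 endothelial markers of the list had no row, and the part of other cells in the Stab1 result was not tested.

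Cd36 encodes a class B scavenger receptor that binds oxidized lipoproteins and long-chain fatty acids and takes part in the uptake of apoptotic cells (chr5:17781690-17888801, minus strand, protein coding). It was at 169.7, 204 and 332 normalized counts in LPS+IFNg libraries, 1392, 1382 and 1304 in IL4 libraries, and 347, 363 and 376 in TGFb libraries. The untreated libraries lay between 656 and 739.7, with a median of 683. The 4 groups did not overlap, and their order was IL4, untreated, TGFb and LPS+IFNg from high to low. Cd36 rose 1.97-fold with IL4 (log2 fold change 0.98 ± 0.13, SE, limma adjusted p = 2.64e-05). It fell by 1.61 on the log2 scale with LPS+IFNg (limma adjusted p = 3.3e-09) and by 0.93 with TGFb (limma adjusted p = 8.4e-06). Each group also differed from its neighbour in level: LPS+IFNg libraries were below TGFb libraries by 0.68 on the log2 scale (limma adjusted p = 0.000574). LPS+IFNg replicate 3 was 1.78 times the mean of replicates 1 and 2 and came close to the TGFb libraries. Without it the log2 fold change of LPS+IFNg was -1.88 against untreated libraries and -0.96 against TGFb libraries.

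Scarb1 encodes the class B receptor SR-BI, the main receptor for high-density lipoprotein, which also binds phosphatidylserine (chr5:125277087-125341094, minus strand, protein coding). Its values were 944, 939 and 1121 in LPS+IFNg libraries, 1060.2, 1091 and 1169 in IL4 libraries, and 1252, 1202 and 1189 in TGFb libraries, against 1223 to 1403 (median 1254) in untreated libraries. The whole span was narrow, and LPS+IFNg and IL4 libraries both lay below every untreated library. Scarb1 fell by 0.35 on the log2 scale with LPS+IFNg (SE 0.06, limma adjusted p = 4.96e-05) and by 0.20 with IL4 (SE 0.06, limma adjusted p = 0.0221). The IL4 call was lost without IL4 replicate 1 (adjusted p = 0.109), without IL4 replicate 2 (0.0961) and without the 3 shallowest libraries (0.0728). With TGFb the log2 fold change was -0.07 (95% interval -0.19 to 0.05), not called. It was called after rescaling to the same total (-0.15, limma adjusted p = 0.0245). From high to low the order was untreated, TGFb, IL4 and LPS+IFNg, and no pair of neighbours in it was called in the main fit over all libraries. Without LPS+IFNg replicate 3, Scarb1 was called lower with LPS+IFNg than with IL4 (log2 fold change -0.23, limma adjusted p = 0.00193) and lower with IL4 than with TGFb (-0.13, limma adjusted p = 0.0411), and its log2 fold change with LPS+IFNg was then -0.44. The first call was also made after rescaling to the same total (limma adjusted p = 0.00583) and quantile normalization (0.024). The second was also made after quantile normalization (limma adjusted p = 0.0346) and with the 2 groups alone (0.0466).

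Mertk encodes the receptor tyrosine kinase for GAS6-coated dying cells (chr2:128698956-128802894, plus strand, protein coding). It was at 105, 116 and 288 normalized counts in LPS+IFNg libraries, 296, 220.2 and 266 in IL4 libraries, and 254, 228 and 269 in TGFb libraries. In untreated libraries it ran from 106 to 178, with a median of 142. All IL4 and TGFb libraries were above every untreated library, whereas LPS+IFNg replicate 1 was just below the lowest untreated library (104.6 against 106.5), replicate 2 was in the lower part of the untreated range and replicate 3 was within the IL4 range. Mertk rose 1.83-fold with IL4 (log2 fold change 0.87 ± 0.23, SE, limma adjusted p = 0.0113) and 1.77-fold with TGFb (0.82 ± 0.23, SE, limma adjusted p = 0.00587). The IL4 call was lost without IL4 replicate 1 (adjusted p = 0.0623) and without the 3 shallowest libraries (0.0628). The rises with IL4 and TGFb differed by 0.05 on the log2 scale (95% interval -0.50 to 0.60), which was not called.

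With LPS+IFNg the direction of Mertk depended on 1 library. Over the 3 libraries the log2 fold change was 0.11 (95% interval -0.37 to 0.58, limma adjusted p = 0.7), and without replicate 3 it was -0.35 (limma adjusted p = 0.0421). Replicate 3 was 2.61 times the mean of the other two libraries. Against the other stimuli Mertk was lower with LPS+IFNg, by 0.76 on the log2 scale against IL4 (limma adjusted p = 0.018) and by 0.72 against TGFb (limma adjusted p = 0.0237). Without replicate 3 these differences were -1.22 and -1.17. They were no longer called without replicate 1 (adjusted p = 0.115 against IL4 and 0.147 against TGFb) or without replicate 2 (0.0852 and 0.108). The call against IL4 was also lost without IL4 replicate 1 (adjusted p = 0.0665), and that against TGFb without TGFb replicate 1 (0.0555) and without TGFb replicate 3 (0.0696). With the 2 groups alone both were lost (limma adjusted p = 0.0997 against IL4 and 0.102 against TGFb), and with no trend that against TGFb (0.0502). These losses make up 4 of 23 alternative settings against IL4 and 6 of 23 against TGFb.

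Gas6 encodes the vitamin K-dependent ligand that links MERTK to phosphatidylserine (chr8:13465374-13494490, minus strand, protein coding). It was at 837, 871 and 560.0 normalized counts in LPS+IFNg libraries, 2782, 2898 and 2911 in IL4 libraries, and 2594, 2497 and 2496 in TGFb libraries, against 2253 to 2492 (median 2424) in untreated libraries. The LPS+IFNg libraries were all far below the other 12, with replicate 3 the lowest. Gas6 fell by 1.70 on the log2 scale with LPS+IFNg (SE 0.09, limma adjusted p = 1.13e-11), which is a 3.24-fold lower level, and by 1.49 without replicate 3. The IL4 and TGFb libraries were each above all untreated libraries, but by little: the log2 fold change was 0.25 with IL4 (95% interval 0.06 to 0.44, limma adjusted p = 0.0671) and 0.07 with TGFb (95% interval -0.12 to 0.26, limma adjusted p = 0.543), and neither was called. The IL4 difference was called in 4 of 23 alternative settings, with the fit of the 2 groups alone (adjusted p = 0.000291) and the fit without LPS+IFNg replicate 3 (1.7e-05) among them. The exons of Gas6 share 34 bases with Tmem255b on the opposite strand.

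**Figure D2:**
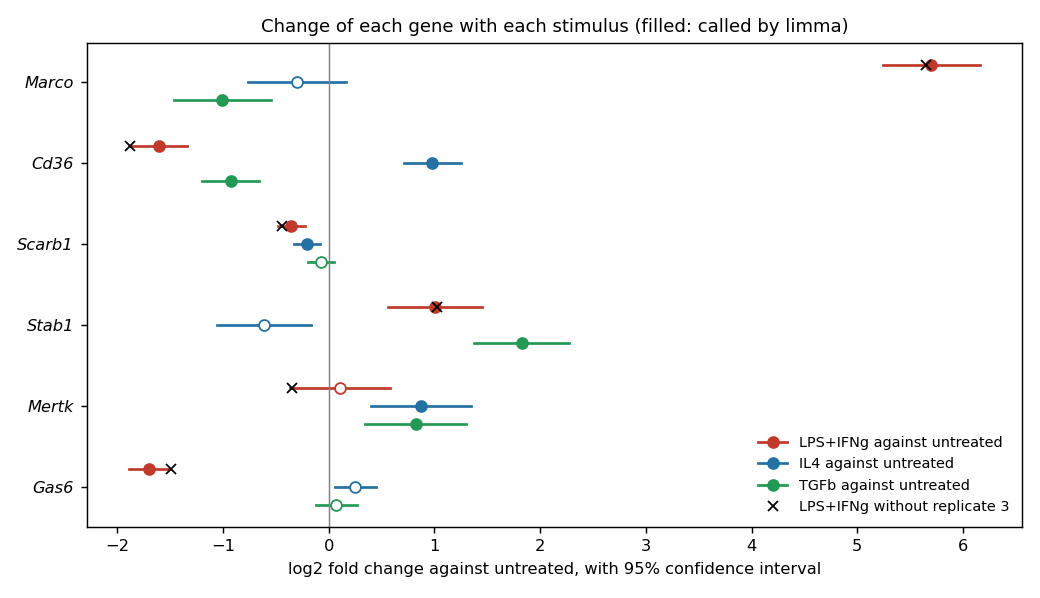
Log2 fold change of each gene against untreated libraries (x axis) with its 95% confidence interval from limma (bars), for LPS+IFNg, IL4 and TGFb. Filled points were called, and crosses give LPS+IFNg without replicate 3. Marco with LPS+IFNg lies at 5.70, apart from all other points, and the Mertk cross at -0.35 is on the other side of 0 from the point at 0.11.

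Set against each other, the stimuli differed in 3 to 6 of these 6 genes, depending on the pair. Between LPS+IFNg and IL4, 5 of 6 were called, and 57.7% of all tested genes. Marco and Stab1 were higher with LPS+IFNg (log2 fold change 6.00 and 1.62), and Cd36, Mertk and Gas6 were lower (-2.59, -0.76 and -1.95). Scarb1, at -0.15, had a limma adjusted p of 0.0718. It was called lower in 3 of 23 alternative settings, the fit without LPS+IFNg replicate 3 (-0.23) among them. Between LPS+IFNg and TGFb all 6 were called, beside 62.6% of all tested genes, with Marco higher with LPS+IFNg (6.70) and the other 5 lower (-1.77 for Gas6 to -0.28 for Scarb1). The Mertk call there was lost under 6 of 23 alternative settings and the Stab1 call under 1. Between IL4 and TGFb, 3 of 6 were called, beside 39.7% of all tested genes. Marco and Cd36 were higher with IL4 (0.71 and 1.91), and Stab1 was lower (-2.44, limma adjusted p = 2.44e-07). Without LPS+IFNg replicate 3 Marco was not called between IL4 and TGFb, and Scarb1 (-0.13) and Gas6 (0.18, limma adjusted p = 0.00136) were.

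Levels of different genes can be compared only per length, here as normalized counts per kilobase of the longest annotated transcript. In LPS+IFNg libraries Gas6 (297) and Marco (289) were at like levels, with overlapping libraries, and Cd36 (69.2), Mertk (39.4) and Stab1 (6.31) were lower. Scarb1 was at 324 there by its longest transcript, with libraries that overlapped those of Gas6 and Marco. Over the union of its annotated exons it was at 118 (110.4 to 131.9), below every Gas6 and Marco library. In IL4 libraries Gas6 averaged 1124, Cd36 399.9 and Scarb1 358. In TGFb libraries Gas6 averaged 993, Scarb1 393 and Cd36 106. In untreated libraries Gas6 averaged 944, Scarb1 412, Cd36 203, Mertk 33.1, Marco 5.17 and Stab1 3.18, and the libraries of Marco and Stab1 overlapped. Marco thus ranked near the bottom without a stimulus, and with LPS+IFNg its libraries overlapped those of Gas6 by either length. The order of Scarb1 depends on its length in untreated libraries too: over the union of exons it was at 150.1, below Cd36 at 192.

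**Figure D3:**
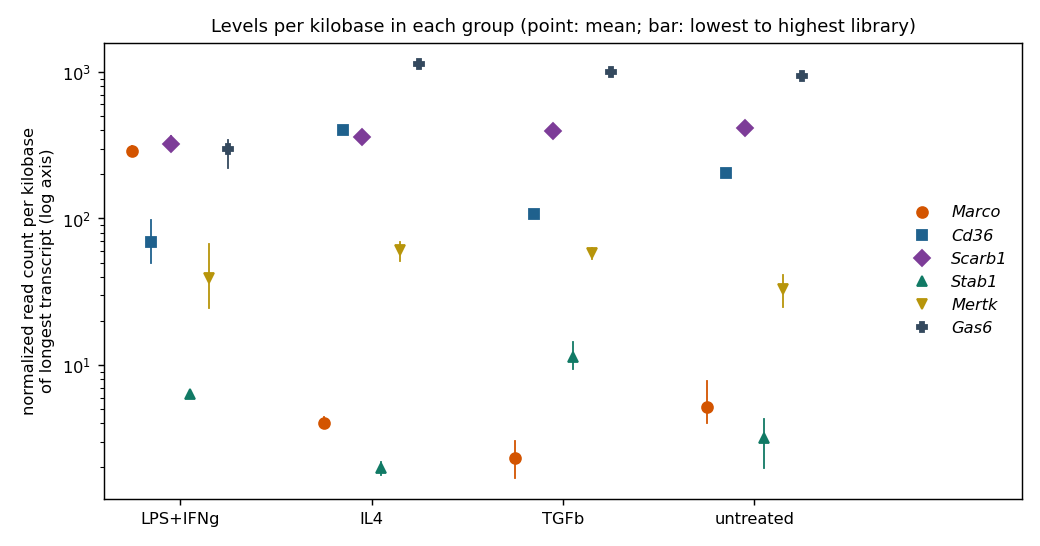
Normalized read count per kilobase of longest transcript (y axis, log scale) of the 6 genes in each group (x axis). Points are group means (n = 3, 3, 3 and 6 libraries) and bars run from the lowest to the highest library. Marco lies at 289 in LPS+IFNg libraries and at 5.17 in untreated libraries, and Gas6 is the highest gene in every group but LPS+IFNg.

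The genes most like each member in pattern were sought among the 9044 genes whose mean reached 50, by Pearson's r of log2(value + 1) over the 15 libraries. These values describe a pattern over libraries that fall into 4 groups, and no test was made of them. Those nearest to Marco were Oasl1 (r = 0.996), Ehd1 (0.995) and Clec4e (0.995). Clec4e, a receptor for mycobacterial glycolipid, averaged 6055 normalized counts in LPS+IFNg libraries, against 59.9 in untreated libraries. Nearest to Gas6 were Pgbd5 (0.994), Snx8 (0.992) and Gpr176 (0.992), and nearest to Cd36 were Adam8 (0.98), Sdha (0.97) and Pdxk (0.97). The best matches were weaker for Stab1 (Cpd 0.943, Tmem184b 0.943, Edem2 0.942), Mertk (Pde11a 0.914, Arl4c 0.906) and Scarb1 (Snx17 0.896, Mcm6 0.892, Slc35c2 0.884).

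Around these 6 genes, 6 wider lists of uptake genes were described, with 73 of 91 genes having a row and 72 tested. The other scavenger receptors (11 tested) had 2 genes higher and 5 lower with LPS+IFNg, 3 higher and 2 lower with IL4, and 6 higher and 3 lower with TGFb, at median log2 fold changes of -0.10, 0.00 and 0.22. That is 63.6% called with LPS+IFNg, near the 58.9% of all tested genes, 45.5% with IL4 beside 17.2%, and 81.8% with TGFb beside 47.5%. Without LPS+IFNg replicate 3, 1 gene was higher and 5 lower with LPS+IFNg. Mrc1, the mannose receptor, averaged 1230 ± 64.9 normalized counts in LPS+IFNg libraries (SD, n = 3) and 13044 ± 644 in IL4 libraries, against 4830 ± 257 in untreated libraries (SD, n = 6). It fell with LPS+IFNg (log2 fold change -1.97, limma adjusted p = 2.51e-16) and rose with IL4 (1.43, limma adjusted p = 2.27e-12). Cxcl16, a membrane chemokine that binds oxidized lipoprotein, rose with LPS+IFNg (log2 fold change 2.01) and with TGFb (2.35). Colec12, a class A scavenger receptor with a lectin domain, fell with LPS+IFNg (-1.28), and Scarb2, a lysosomal protein of the same family as Cd36 and Scarb1, rose with TGFb (1.19). Cd5l, a secreted scavenger receptor protein of macrophages, rose with IL4 (1.07) and fell with LPS+IFNg (-1.27), where replicate 3 was at 33.9 and the other libraries at 10.1 and 7.74, and without replicate 3 the log2 fold change was -1.88. The Cd5l call with IL4 was lost without IL4 replicate 1 (adjusted p = 0.0755) and without IL4 replicate 2 (0.0557).

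Of other receptors and bridging proteins for dead cells, 16 were tested, with C1qb tested through LPS+IFNg libraries alone and Cd93 through TGFb libraries alone. Of the 14 others, 2 were higher and 9 lower with LPS+IFNg, beside 29.5% and 29.4% of all tested genes. With IL4, 3 were higher, beside 9.89% of all tested genes, and 0 lower (also 0 lower at an unadjusted p below 0.05 in limma). With TGFb 8 were higher and 3 lower, beside 24.1% and 23.4%. Their median log2 fold changes were -0.33, 0.21 and 0.47. With C1qb and Cd93 the counts were 3 higher and 10 lower with LPS+IFNg, 3 and 0 with IL4, and 10 and 3 with TGFb. Without LPS+IFNg replicate 3, where C1qb was not tested and Cd93 was, 1 was higher and 11 lower with LPS+IFNg, and 8 higher and 1 lower with IL4, where 24.9% of all tested genes were then called. Cd300lb, a receptor for phosphatidylserine in mice, fell with LPS+IFNg (log2 fold change -1.85, limma adjusted p = 1.1e-12), and so did Itgb5 (-1.42), the integrin chain that with Itgav binds the bridging protein MFG-E8. The Itgb5 values with LPS+IFNg, 11.6, 5.16 and 5.65, rest on 15, 6 and 5 reads. They overlapped the untreated values, the lowest of which was 11.2. In the fit without LPS+IFNg replicate 3, the Itgb5 log2 fold change with LPS+IFNg was -1.28.

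With TGFb, Itgb5 was at 552, 572 and 562 normalized counts, against 11.2 to 28.3 in untreated libraries. It rose 26.2-fold (log2 fold change 4.71 ± 0.30, SE, limma adjusted p = 4.04e-10), and its partner Itgav rose with it (1.54). Cd93, a C-type lectin membrane protein, rose with TGFb (3.64). With LPS+IFNg Cd93 had 0 recovered reads, against 18 over the untreated libraries, which with 3 counts over the group is at least 3.66-fold lower. That call was lost under 5 of the alternative settings, with the fit of the 2 groups alone (adjusted p = 0.0591) and without any 1 of the LPS+IFNg libraries among them. Havcr2, which encodes TIM-3, rose with TGFb (1.17).

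Complement C1qb and C1qc, whose products opsonize dying cells, rose with LPS+IFNg. C1qb was at 154, 175 and 724 normalized counts in LPS+IFNg libraries, with 1044 reads, against 2 reads over the untreated libraries, a depth-adjusted ratio of 855 (95% exact Poisson interval 236 to 7068, counting error only). Of these 1044 reads, 641 came from replicate 3, and 199 and 204 from replicates 1 and 2. The ratio without replicate 3 was not computed. The untreated values at the floor allow 2 further reads. C1qc was at 20.9, 28.4 and 107 in LPS+IFNg libraries, against 1 to 3.24 in untreated libraries, on 0 to 3 reads each. It rose by 3.97 on the log2 scale with LPS+IFNg, or by 3.27 without replicate 3. In TGFb libraries C1qb had 24 reads (ratio 18.2, interval 4.52 to 159), and C1qc rose by 3.11 on the log2 scale.

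The engulfment machinery (17 tested), which links these receptors to the cytoskeleton, had 5 genes higher and 8 lower with LPS+IFNg, 5 higher and 0 lower with IL4, and 8 higher and 5 lower with TGFb. The shares called were 76.5%, 29.4% and 76.5%, beside 58.9%, 17.2% and 47.5% of all tested genes. In the fit without LPS+IFNg replicate 3, 4 were higher and 8 lower with LPS+IFNg, and 7 higher and 1 lower with IL4. Of all tested genes, 55% and 24.9% were then called. The changes of this list were small, with medians of -0.12, 0.09 and 0.15 over all libraries. At an unadjusted p below 0.05 limma put 2 of its genes lower with IL4. The largest were Dock5, which fell with LPS+IFNg (-1.22), and the adaptor Bcar1, which rose with TGFb (1.52). Among the 9 tested genes for find-me receptors and the do-not-eat-me pair, 4 were higher and 1 lower with LPS+IFNg, 3 higher and 2 lower with IL4, and 4 higher and 2 lower with TGFb (medians 0.15, -0.07 and 0.07). The shares called were 55.6%, close to the 58.9% of all tested genes, with LPS+IFNg, 55.6% beside 17.2% with IL4, and 66.7% beside 47.5% with TGFb. Without Cx3cr1, which was tested through TGFb libraries alone, 3 of 8 were higher with TGFb and 2 lower, at a median of 0.04. In the fit without LPS+IFNg replicate 3, 3 genes of this list were higher and 2 lower with LPS+IFNg, beside 55% of all tested genes called. Cd47, the do-not-eat-me signal, rose with LPS+IFNg to 808, 822 and 1016 normalized counts, against 227 to 263 in untreated libraries (log2 fold change 1.87, limma adjusted p = 1.76e-13). Sirpa, the other gene of the pair, named after its values were seen, fell with LPS+IFNg (log2 fold change -0.57, limma adjusted p = 3.4e-08). Cx3cr1, the receptor gene for the find-me chemokine fractalkine, rose with TGFb by 3.70 on the log2 scale, and P2ry6, the receptor gene for uridine diphosphate, by 3.02.

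Genes that process these receptors and their ligands (7 tested) included 3 higher and 2 lower with LPS+IFNg, 4 higher and 0 lower with TGFb, and none called with IL4, at medians of -0.07, 0.25 and 0.05. The shares called were 71.4% beside 58.9% of all tested genes with LPS+IFNg, 57.1% beside 47.5% with TGFb, and 0% beside 17.2% with IL4. In limma no gene of this list reached an unadjusted p below 0.05 with IL4 or as a lower gene with TGFb. Adam17, named after its values were seen, encodes the protease that cleaves MERTK from the cell surface. It rose with LPS+IFNg by 0.94 on the log2 scale (3179 against 1658 in untreated libraries, limma adjusted p = 2.85e-11). Adam10, of the same list and also named after its values were seen, fell with LPS+IFNg (log2 fold change -0.47, limma adjusted p = 6.23e-06). Cleavage of MERTK was not measured. Rhbdf2, whose product helps ADAM17 mature, rose with LPS+IFNg (1.03) and with TGFb (1.06). Furin, a protease that activates precursors of ADAM17, rose with TGFb (2.28) and with LPS+IFNg (1.60), where replicate 3 was at 4393 and the others at 1740.3 and 1771, and the rise without replicate 3 was 1.16.

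Of 12 nuclear receptors and other factors known to act on these receptor genes, 2 were higher and 4 lower with LPS+IFNg, 3 higher and 0 lower with IL4, and 6 higher and 3 lower with TGFb (medians -0.08, 0.05 and 0.17). The shares called were 50%, 25% and 75%, beside 58.9%, 17.2% and 47.5% of all tested genes. Without Pparg, which reached the minimum in 2 IL4 libraries and 1 untreated library only, 2 were higher with IL4 and the LPS+IFNg median was 0.01. With IL4, 2 of them were lower at an unadjusted p below 0.05 in limma. In the fit without LPS+IFNg replicate 3, 3 were higher and 4 lower with LPS+IFNg, and 3 higher and 1 lower with IL4. Of all tested genes, 55% and 24.9% were then called. The transcription factor gene Maf fell with LPS+IFNg (log2 fold change -1.19, limma adjusted p = 4.32e-07), to 31.0, 30.9 and 33.9 normalized counts, against 61.8 to 95.3 in untreated libraries. Nr4a1, an orphan nuclear receptor gene, fell too (-1.18), with replicate 3 at 212 and the other libraries at 105 and 88.5, and its log2 fold change without replicate 3 was -1.56. Pparg, a nuclear receptor known to act on Cd36, was at 6.57, 14.1 and 15.6 in IL4 libraries, against 1 to 12.1 in untreated libraries. It was called higher with IL4 (log2 fold change 1.67, limma adjusted p = 0.036), and the call was lost without the 3 shallowest libraries (adjusted p = 0.0898) and without untreated replicate 1, 2 or 5 (0.0688, 0.0695 and 0.0637).

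**Figure D4:**
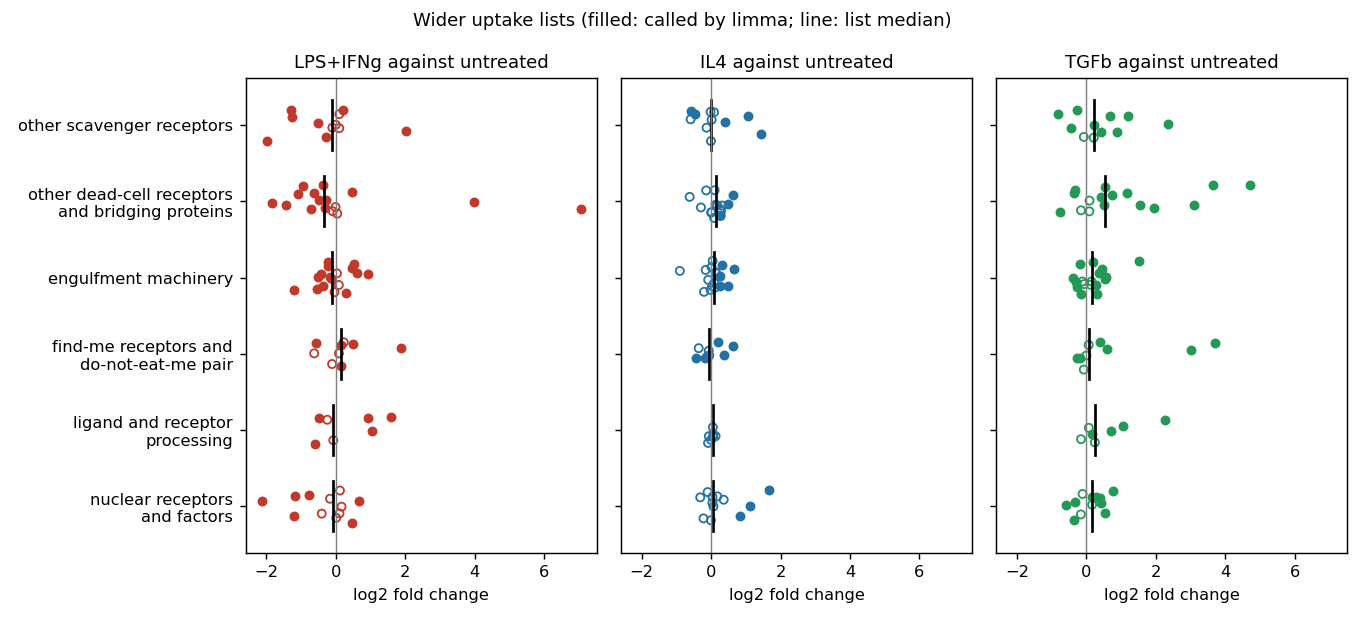
Log2 fold change against untreated libraries (x axis) of each tested gene of the 6 wider lists (rows), for LPS+IFNg, IL4 and TGFb. Points are genes, filled where called, with vertical jitter that has no meaning, and black lines are list medians. The list of other dead-cell receptors and bridging proteins has its median at -0.33 with LPS+IFNg and at 0.53 with TGFb, and the points farthest right are C1qb with LPS+IFNg and Itgb5 with TGFb. These medians include C1qb and Cd93, each tested through 1 group alone, and without them they are -0.33 and 0.47.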

How the data were processed

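Per the labels' protocols, TRIZOL was used to extract total RNA and the Illumina TruSeq kit to prepare RNA libraries. TopHat2 2.0.3, Partek 6.6, R 3.0.2, DESeq2 and the mouse build mm10 are named in the submitters' processing notes, with no order or role. The annotation, the counting rule and the use of strand are not given in the sources used here. The authors deposited 1 normalized signal for each gene in each library. These values look like counts over a library factor, with anything under 1 set to 1: above that floor and under 200, 100% of them were whole multiples, within 0.01 reads, of what 1 read is worth. Of 11201 genes, 276 had a value at the floor, whose reads are unknown and were taken as 0, and the lowest of all genes' highest values was 11.1. All 15 value columns were used, and 0 were left out. Groups came from the labels, and replicate numbers only name libraries.

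Normalized values call for a log-scale test, so limma 3.58.1 (R 4.3.3) was used on log2(value + 1), with a trended prior, 1 fit over all 15 libraries and genes at 10 or more in at least 3 libraries (11138 genes). Intervals are 95% intervals from limma, not adjusted for the number of comparisons. The edgeR and DESeq2 tests planned for recovered reads were not run, because the floor hides reads. Scripts were tested on simulated data. Positions and lengths came from GENCODE M21 (GRCm38), and promoter windows and motif shares from RefSeq. All 6 genes are named by the list. From the wider lists the rule names called genes with a log2 fold change of at least 1 in either direction, at most 6 per list and stimulus. For each of the 6 genes it also names the 3 genes most like it. Some genes that the rule takes are not reported here. Older symbols were matched for Adgre1 (Emr1) and Adgrb1 (Bai1). The members and the lists were chosen with earlier results of these data known. Alternatives were pseudocount 5, a minimum value of 50, no filter, no trend, each pair of groups alone, rescaling to the same total, quantile normalization, leaving out the 3 shallowest libraries and leaving out each library in turn.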

Additional observations from a re-analysis of the deposited data

Results flagged for a closer look

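Within the 6 untreated libraries, the gap of the highest or lowest library to its nearest neighbour was compared with the range for 29 genes, the 6 uptake genes and the 23 named from the wider lists. A gap of more than 0.625 of the range was found for 6 of them. For equally precise, normally distributed values the rate would be about 1 in 20. The untreated libraries differ in depth (2682564 to 18676181 reads), so that rate may not hold here and no excess is claimed. Marco was at 15.1 (15.09) in untreated replicate 1, on 8 reads, and at 7.73 to 10.2 in the others. Scarb1 was at 1403 in the same library and at 1223 to 1282 in the others. Gas6 was at 2253 in untreated replicate 4, the shallowest library, and at 2408 to 2492 in the others. Also in replicate 4, Havcr2 was at 271.8, against 189.9 to 220.0 in the others, and Rhbdf2 was at 266.2, against 336.5 to 356.5. Pparg was at 12.14 in untreated replicate 3, on 11 reads, and at 1 to 3.52 in the others.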

How the results depend on the processing

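The 36 values of the 6 genes in the 6 comparisons were recomputed under 23 alternatives, which gave 828 values: 784 kept their direction or stayed uncalled, 25 were no longer called, 18 became called and 1 turned round. That one was Mertk with LPS+IFNg, whose log2 fold change was 0.11 over all libraries, -0.35 without LPS+IFNg replicate 3 and -0.35 to 0.38 over the libraries left out in turn. The number of the 6 genes called with IL4 was 3, fell to 1 without the 3 shallowest libraries and ran from 1 to 5 over the libraries left out in turn, where the number of all genes called ran from 1130 to 2749, beside 1917. Between IL4 and TGFb, 5 of the 6 genes were called in a fit of those groups alone, in place of 3. The other counts of the 6 genes and of all genes called stayed within 1.5 times, and the cause of these shifts was not tested. Giving every library an equal total shifted the all-gene median with LPS+IFNg by -0.12 on the log2 scale and took the share of higher calls to 35.5% with LPS+IFNg, 33.9% with IL4 and 37.8% with TGFb, in place of 50%, 57.4% and 50.8%. Under quantile normalization these shares were 38.8%, 47.4% and 45.1%. Over all alternatives the list of other dead-cell receptors, with C1qb and Cd93 where they were tested, had 9 to 11 genes lower with LPS+IFNg and 8 to 10 higher with TGFb. With IL4 its counts moved more, from 2 to 8 higher and 0 to 1 lower, beside 3 and 0 in the main fit. The edgeR and DESeq2 alternatives were not run, and the planned ratios of Axl to Mertk and of Gas6 to Pros1 were not computed, because Axl and Pros1 are not analysed here. No paired analysis was possible because the labels give no replicate numbers that the groups share. Depth limits Marco outside LPS+IFNg libraries, at 2 to 26 reads per library, and C1qb, C1qc, Cd93, Cx3cr1 and Pparg. It also limits Itgb5 in LPS+IFNg libraries, at 5 to 15 reads per library. Reads per library were few in untreated libraries too for Bcar1 (1 to 27), Cxcl16 (1 to 23) and P2ry6 (5 to 25).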
